A study of Mus musculus with 4 samples.

Results

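The genes examined here act in fetal growth and developmental timing and were followed in E17 mouse lungs. They were the imprinted genes *Igf2*, *H19*, *Dlk1*, *Peg3* and *Mest*, and the timing genes *Lin28b*, *Hmga2*, *Igf2bp1*, *Igf2bp2* and *Igf2bp3*. The genes were chosen by symbol, with earlier results of these data known, and all 10 were found among the 45706 genes of the table. RNA was sequenced from the left lung lobe of 4 embryos on a C57BL/6 background at embryonic day 17, an age at which the distal airways are widening into sacs. The wild-type group (Myh10+/+) held 2 lungs. The mutant group, labelled Myh10L458R/L458R and here written Myh10-/-, held 2 lungs homozygous for the substitution L458R in the motor domain of non-muscle myosin heavy chain II-B. The allele came from a chemical (ENU) mutagenesis screen and is carried by every cell of the embryo, and the labels name no treatment.

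IGF2 is the main insulin-like growth factor of the mouse fetus, and it is cleared from the cell surface by the receptor encoded by *Igf2r*. Imprinted genes are expressed from the copy inherited from one parent, and many of them set fetal and placental growth. *Igf2*, *Dlk1*, *Peg3* and *Mest* are expressed from the paternal copy and *H19*, a noncoding RNA, from the maternal one. LIN28B is an RNA-binding protein that blocks the maturation of let-7 microRNAs, and let-7 in turn represses *Lin28b*, *Hmga2* and the *Igf2bp* genes. This circuit is high in the embryo and is shut down in most tissues before birth, as are many of the imprinted growth genes after birth.

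Between 19116971 and 32055306 reads were counted on genes in a lung, with fewer in both Myh10+/+ lungs than in either Myh10-/- lung. Of the 18763 genes that averaged 5 counts or more, 308 differed between genotypes at an adjusted p-value under 0.05 (1.64%), with 252 lower and 56 higher in the mutant, or 81.8% lower (67.6% with scaling by library totals). *Xist*, expressed from the inactive X chromosome of females, was high in lung 1 of Myh10+/+ (3916 CPM) and lung 2 of Myh10-/- (4457 CPM) and near 0 in the others (1.84 and 4.10 CPM), so each genotype held 1 lung of either kind. *Myh10* itself was at 505 and 504 CPM in Myh10+/+ lungs and at 539 and 513 CPM in Myh10-/- lungs (log2 fold change 0.06, adjusted p = 0.662), and since the mutation changes a codon and removes no exon, its count does not check the genotype. Lung markers were present in all 4 libraries, with surfactant genes and 5 other epithelial genes between 114 and 5815 CPM. Levels are CPM, edgeR's depth-scaled counts with TMM factors, fold changes are Myh10-/- over Myh10+/+, and p-values are from edgeR's quasi-likelihood test unless another is named.

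Short matches to the let-7 microRNA family lie in the 3' UTRs of 6 of the 10 genes, so these sequences are shown first. Mature microRNAs were not measured here, and whether a match acts as a site was not tested. Of 11 family members in RefSeq (GRCm38.p6), 10 share the seed GAGGUAG and let-7j differs in its last base. Seed bases, from base 2 to base 8, are in capitals, and the 3 microRNAs at the end lie within member genes, miR-675 in an exon of *H19*, miR-483 in an intron of *Igf2* and miR-335 in an intron of *Mest*.
let-7a-5p: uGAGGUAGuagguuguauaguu
let-7g-5p: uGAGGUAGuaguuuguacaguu
miR-98-5p: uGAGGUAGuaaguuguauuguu
let-7j: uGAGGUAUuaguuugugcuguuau
miR-675-5p: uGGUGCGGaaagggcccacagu
miR-483-3p: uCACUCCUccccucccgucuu
miR-335-5p: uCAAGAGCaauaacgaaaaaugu

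The complement of the seed, CTACCTC, was searched for on the sense strand of the 3' UTR of 1 principal transcript per gene (GENCODE M21, GRCm38). It was found 15 times in 6 of the 9 protein-coding members, with 4 matches each in *Hmga2*, *Lin28b* and *Igf2bp1* and 1 each in *Igf2bp2*, *Igf2bp3* and *Peg3*. No match was found in the 3' UTR of *Igf2*, *Dlk1* or *Mest* or in the *H19* transcript. Of 20705 genes with a 3' UTR, 1778 (8.59%) held at least 1 match and 12 held at least 4, and 3 of those 12 are members. Among 3' UTRs of 2000 to 7000 bases, 18.3% held at least 1 match and 0.208% at least 4. The 3' UTRs of *Igf2bp2* (1784 bases) and *Mest* (1296 bases) are shorter than this range. *Lin28b*, *Hmga2* and the *Igf2bp* genes were already known as let-7 targets, so these shares do not test the list. All 4 matches in *Hmga2* and the first in each other gene are printed here with the match in capitals. Of the 15 matches, 7 are followed by an a, a base often found after stronger let-7 sites. All are on the minus strand.
Hmga2, chr10:120364224-120364245: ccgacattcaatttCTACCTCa
Hmga2, chr10:120362987-120363008: cccactcctcaataCTACCTCt
Hmga2, chr10:120362549-120362570: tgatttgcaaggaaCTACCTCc
Hmga2, chr10:120361691-120361712: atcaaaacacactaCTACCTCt
Lin28b, chr10:45381022-45381043: cccgggcgggaagtCTACCTCa
Igf2bp1, chr11:95961778-95961799: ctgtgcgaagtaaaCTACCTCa
Igf2bp2, chr16:22059473-22059494: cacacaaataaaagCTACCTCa
Igf2bp3, chr6:49086787-49086808: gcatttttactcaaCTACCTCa
Peg3, chr7:6706883-6706904: gagtgttctgtcccCTACCTCt

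All 10 members passed the minimum of 5 counts and were tested. *Peg3* rose in Myh10-/- lungs and no other member passed an adjusted p-value of 0.05, so 1 of 10 was called higher against 0.298% of all tested genes, and 0 of 10 lower against 1.34%. Read without adjustment, p was under 0.05 for 2 higher members (*Peg3* and *Hmga2*), against 7.52% of all tested genes, and for 1 lower member (*Dlk1*), close to the 9.02% of all tested genes. DESeq2 called 2 members higher and 1 lower, against 0.917% and 2.58% of the 10032 genes to which it gave an adjusted p. The log2 fold change was above 0 for 8 members and below 0 for 2, with a median of 0.14, where the median of all tested genes was 0.0018. In 6 members both Myh10-/- lungs lay above both Myh10+/+ lungs (23.9% of all tested genes did so), and in *Dlk1* both lay below (24.3%). The members were chosen with earlier results of these data known, so the shares beside them do not test the list. Whether more or fewer cells expressed a gene or each cell held more or less of its RNA cannot be told apart in whole lobes.

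**Figure D1:**
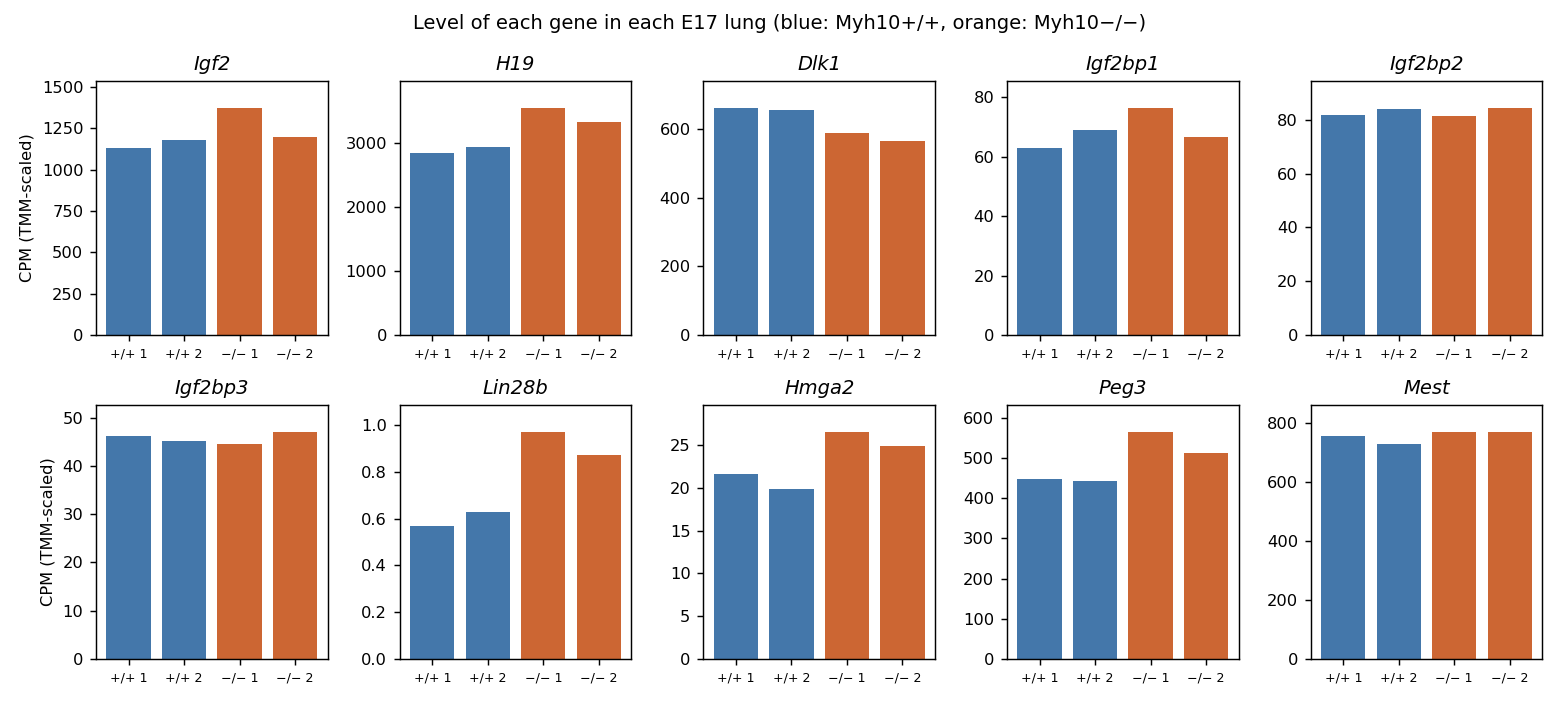
Level of each of the 10 genes in each lung, in TMM-scaled CPM on axes that start at 0, with Myh10+/+ lungs in blue and Myh10-/- lungs in orange. Both Myh10-/- values of *Peg3* (565 and 514 CPM) exceed both Myh10+/+ values (447 and 443 CPM), whereas the genotypes overlap for *Igf2bp1*, *Igf2bp2* and *Igf2bp3*.

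*Peg3* (ENSMUSG00000002265) encodes a paternally expressed zinc finger protein that has been tied to fetal growth and to maternal care. On GRCm38 it spans 6703892 to 6730431 of chromosome 7 (minus strand). It was counted at 447 and 443 CPM in Myh10+/+ lungs and at 565 and 514 CPM in Myh10-/- lungs. Both Myh10-/- lungs were above both Myh10+/+ lungs, and the Myh10-/- lungs differed more from each other than the Myh10+/+ lungs did. The mean rose from 445 ± 3.07 to 540 ± 36.4 CPM (SD, n = 2 each), or by 21.2% (log2 fold change 0.28, SE 0.06, adjusted p = 0.0493). This p-value stood just under the threshold. It was 0.0511 with DESeq2 size factors and 0.0536 with the filter of edgeR, and lay between 2.52e-05 and 0.0536 over 12 alternatives, 10 of which called the gene. With a lung left out *Peg3* was called without lung 2 of Myh10-/- (adjusted p = 8.33e-04) and not without lung 1 of Myh10-/- (0.109) or without lung 1 (0.134) or lung 2 (0.374) of Myh10+/+. The log2 difference was 0.35 between the lungs without *Xist* and 0.20 between those with it.

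*Mest* (ENSMUSG00000051855), a paternally expressed gene of the hydrolase fold family that is abundant in fetal mesoderm, spans 30723547 to 30748465 of chromosome 6 (plus strand). Its levels were 755 and 726 CPM in Myh10+/+ lungs and 768 and 768 CPM in Myh10-/- lungs. The genotypes did not overlap, but the log2 fold change of 0.05 (95% confidence interval -0.11 to 0.21, adjusted p = 0.772) did not pass. *Copg2* lies on the opposite strand over 912 bp of its exons, and 20.2% of its windows of 75 bases, the read length, also occur there. Reads in that stretch may have been left out of both genes, as the study's methods do not state whether the counting used strand.

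*H19* (ENSMUSG00000000031), the noncoding RNA that carries miR-675, and *Igf2* (ENSMUSG00000048583) are 72622 bp apart on chromosome 7 (minus strand), with *H19* at 142575529 to 142578143 and *Igf2* at 142650766 to 142666816. The pair shares enhancers that act on *H19* from the maternal chromosome and on *Igf2* from the paternal one. *H19* was at 2831 and 2927 CPM in Myh10+/+ lungs and at 3534 and 3318 CPM in Myh10-/- lungs. Both Myh10-/- lungs were higher, at a fitted 1.19 times the Myh10+/+ level, and the log2 fold change of 0.25 (SE 0.12, 95% confidence interval -0.0034 to 0.51, adjusted p = 0.308) did not pass. *Igf2* was at 1129 and 1179 CPM in Myh10+/+ lungs and at 1372 and 1197 CPM in Myh10-/- lungs. Lung 2 of Myh10-/- was 0.02 above lung 2 of Myh10+/+ on the log2 scale, and the log2 fold change of 0.15 (95% confidence interval -0.06 to 0.37, adjusted p = 0.463) did not pass.

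Whether *H19* passed changed with the fit. Its log2 fold change lay between 0.25 and 0.33 over 12 alternatives, 4 of which called it, with adjusted p-values from 4.30e-04 to 0.379. It passed with DESeq2's Wald test (adjusted p = 0.00134) and without genes of chromosomes X, Y and MT (0.0393). Without lung 2 of Myh10-/- both *H19* (log2 fold change 0.30, adjusted p = 0.00357) and *Igf2* (0.25, adjusted p = 0.0177) were called, and without lung 1 of Myh10-/- the value of *Igf2* was 0.06. Between the lungs without *Xist* the log2 difference was 0.27 for *H19* and 0.22 for *Igf2*, and between those with it 0.23 and 0.08.

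*Dlk1* (ENSMUSG00000040856), which encodes a membrane protein of the Notch ligand family that restrains adipocyte differentiation, was the one member with lower levels in both Myh10-/- lungs. It spans 109452823 to 109463336 of chromosome 12 (plus strand). The values were 660 and 654 CPM in Myh10+/+ lungs and 588 and 566 CPM in Myh10-/- lungs. The mean differed by -12.2% (log2 fold change -0.19, 95% confidence interval -0.33 to -0.05, adjusted p = 0.174). It passed in 2 of 12 alternatives, with DESeq2's Wald test (adjusted p = 0.0369) and with every gene of at least 1 count tested (0.0343), and the adjusted p-values ranged from 0.0343 to 0.285. Whichever lung was left out, the log2 fold change stayed between -0.21 and -0.16 and was not called. *Meg3*, the maternally expressed noncoding RNA 77664 bp downstream of it, was at 951 and 986 CPM in Myh10+/+ lungs and at 1024 and 960 CPM in Myh10-/- lungs. These ranges overlapped, with a log2 fold change of 0.03 (adjusted p = 0.886).

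Ratios of counts within a lung need no scaling between libraries, and 3 were compared. The ratio of *H19* to *Igf2* was 2.51 and 2.48 in Myh10+/+ lungs and 2.58 and 2.77 in Myh10-/- lungs. Both Myh10-/- lungs were higher, by 0.10 on the log2 scale on average, and the gap between them (SD 0.07) was wider than that between the Myh10+/+ lungs (SD 0.01, n = 2 each). The ratio of *Meg3* to *Dlk1* was 1.44 and 1.51 in Myh10+/+ lungs and 1.74 and 1.70 in Myh10-/- lungs, a log2 difference of 0.22 against SDs of 0.04 and 0.03 (n = 2 each). The ratio of *Igf2r*, which encodes the clearance receptor, to *Igf2* was 0.444 and 0.418 in Myh10+/+ lungs and 0.372 and 0.404 in Myh10-/- lungs, a log2 difference of -0.15. An exact permutation test, two-sided, gave p = 0.333 for each of the 3 ratios (adjusted over the 3, 0.333), the smallest p that 2 lungs against 2 allow. *Igf2r* itself was at 501 and 493 CPM in Myh10+/+ lungs and at 510 and 484 CPM in Myh10-/- lungs, with overlapping genotypes.

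**Figure D2:**
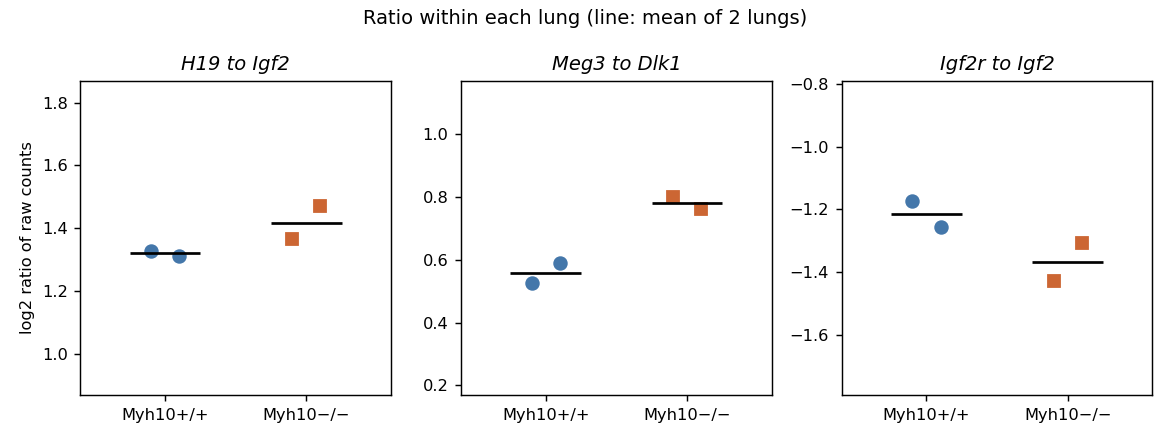
Log2 ratio of raw counts of 2 genes within each lung, with 1 point per lung, a line at the mean of each genotype and y axes of equal span. The genotypes stand apart for *Meg3* to *Dlk1* (0.53 and 0.59 against 0.80 and 0.76) by more than either pair of lungs differs.

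*Hmga2* (ENSMUSG00000056758), which encodes a DNA-bending chromatin protein of proliferating embryonic cells, had the second lowest unadjusted p-value of the 10. It spans 120361275 to 120476469 of chromosome 10 (minus strand) and has 4 of the let-7 matches shown above. The levels were 21.7 and 19.9 CPM in Myh10+/+ lungs and 26.5 and 24.9 CPM in Myh10-/- lungs. Both Myh10-/- lungs were higher, by 23.5% on average (log2 fold change 0.30, SE 0.08, 95% confidence interval 0.13 to 0.48), and with an adjusted p of 0.0780 the difference did not pass. It passed in 3 of 12 alternatives, among them the replicate block (adjusted p = 0.0282), with a range of 0.0212 to 0.173, and without lung 2 of Myh10-/- (0.0157). The paired log2 difference was 0.42 between the lungs without *Xist* and 0.20 between those with it.

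*Lin28b* (ENSMUSG00000063804), the let-7 antagonist, spans 45376620 to 45486395 of the same chromosome (minus strand). It was barely detected, with 13 and 12 reads in Myh10+/+ lungs and 27 and 28 reads in Myh10-/- lungs. Scaled to depth these were 0.568 and 0.630 CPM against 0.971 and 0.870 CPM, so that the genotypes did not overlap. The log2 fold change of 0.62 was the largest of the 10, but its 95% confidence interval ran from -0.16 to 1.39 (adjusted p = 0.414), so that no difference was detectable at 12 to 28 reads a lung. It passed in 0 of 12 alternatives, in 1 of which, DESeq2, it was given no adjusted p. *Lin28a*, its paralog, had 0, 0, 0 and 4 reads and was not tested.

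The *Igf2bp* genes encode RNA-binding proteins that hold *Igf2*, *H19* and other transcripts in the cytoplasm and stabilize them, and they showed little difference between genotypes. *Igf2bp1* (ENSMUSG00000013415, chromosome 11, 95957163 to 96005940) was at 62.8 and 68.9 CPM in Myh10+/+ lungs and at 76.3 and 66.8 CPM in Myh10-/- lungs, with overlapping genotypes and a log2 fold change of 0.12 (95% confidence interval -0.06 to 0.30, adjusted p = 0.499). This value was 0.02 without lung 1 of Myh10-/- and 0.22 without lung 2 of Myh10-/-, with 0.05 and 0.19 without lung 1 and lung 2 of Myh10+/+. *Igf2bp2* (ENSMUSG00000033581, chromosome 16, 22059009 to 22163299) was at 81.8 and 84.1 CPM in Myh10+/+ lungs and at 81.5 and 84.2 CPM in Myh10-/- lungs. *Igf2bp3* (ENSMUSG00000029814, chromosome 6, 49085223 to 49214957) was at 46.2 and 45.2 CPM in Myh10+/+ lungs and at 44.6 and 47.0 CPM in Myh10-/- lungs. All 3 genes are on the minus strand. For *Igf2bp2* and *Igf2bp3* the confidence intervals, -0.13 to 0.13 and -0.16 to 0.16 on the log2 scale, leave room for changes of about that size in either direction, and the sign of both fold changes turned under some alternatives. *Malsu1* overlaps 1529 bp of the exons of *Igf2bp3* on the opposite strand, and 17.8% of its windows of 75 bases also occur there.

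**Figure D3:**
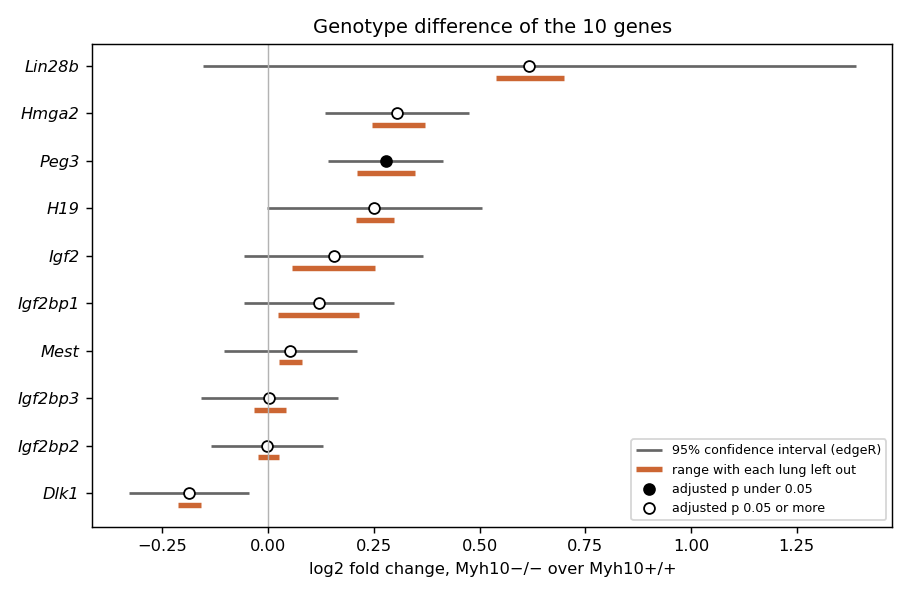
Log2 fold change of each gene (Myh10-/- over Myh10+/+, 2 lungs each), with the 95% confidence interval of edgeR as a grey line and the range of values with each lung left out as an orange line. The filled point is *Peg3* at 0.28, the 9 open points did not pass an adjusted p of 0.05, and the interval of *Lin28b* is the widest.

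Levels of different genes were compared per exon length, as CPM per kilobase. The 10 genes spanned over 4 orders of magnitude and kept the same order in all 4 lungs. *H19* was highest at 1151 to 1437 CPM per kilobase, rank 6 of the tested genes. *Igf2* followed at 197 to 240 and *Mest* at 184 to 195 CPM per kilobase, neighbours whose ranges came close without overlapping. *Dlk1* was at 100.02 to 117 and *Peg3* at 33.2 to 42.4 CPM per kilobase, above 98.5% and 93.5% of tested genes. The timing genes were lower, with *Igf2bp2* at 11.0 to 11.4, *Igf2bp1* at 6.49 to 7.88, *Igf2bp3* at 5.46 to 5.76 and *Hmga2* at 2.93 to 3.92 CPM per kilobase, ranks 5246 to 10454 of the tested genes. *Lin28b* was at 0.0626 to 0.107 CPM per kilobase, above 2.55% of tested genes. The length is that of all annotated exons together, which understates the level of genes that use few of them. Reads of *Mest* and *Igf2bp3* in stretches shared with antisense genes (20.2% and 17.8% of their windows) may have been left out. The order of *Mest* against *Igf2*, and of *Igf2bp3* against *Igf2bp1*, is therefore uncertain.

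**Figure D4:**
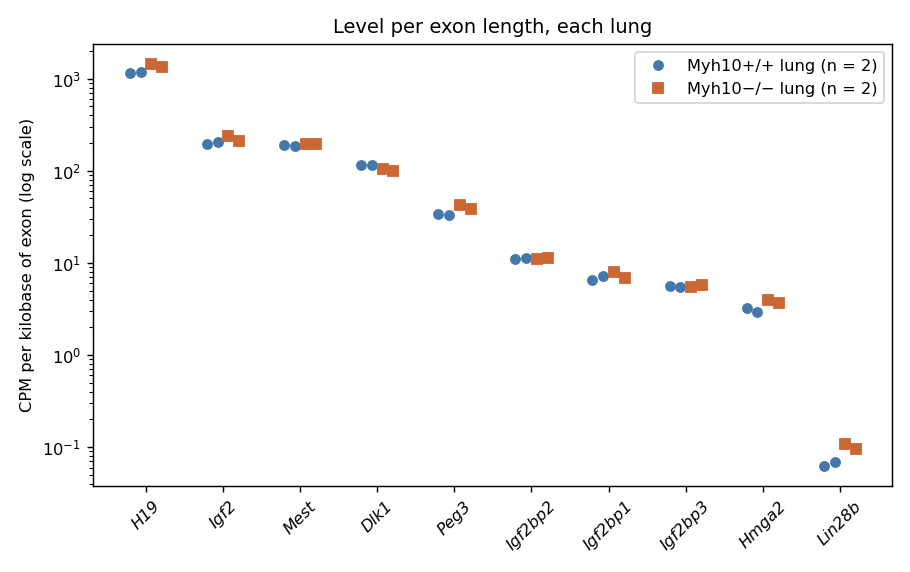
CPM per kilobase of exon on a log axis for each gene and lung, Myh10+/+ as blue circles and Myh10-/- as orange squares. The order from *H19* (1151 to 1437) to *Lin28b* (0.0626 to 0.107) is the same in every lung, and the genotype differences are small beside the spread between genes.

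Other genes of the same pathways were read from 3 lists. These too were chosen with earlier results of these data known, so the shares beside them do not test the lists. Of 18 genes of the IGF axis, 16 were tested, 2 were lower (1.34% of all tested genes were) and 0 higher (0.298%), with a median log2 fold change of 0.03. The lower genes were *Igfbp6* and *Igfbp7*, which encode IGF-binding proteins, and IGFBP6 is known to prefer IGF2. *Igfbp6* was at 41.3 and 45.5 CPM in Myh10+/+ lungs and at 22.6 and 31.4 CPM in Myh10-/- lungs, at a log2 fold change of -0.68 (95% confidence interval -0.95 to -0.41, adjusted p = 0.0201), called with every lung left out in turn. *Igfbp7* was at 72.3 and 68.0 CPM in Myh10+/+ lungs and at 50.9 and 58.1 CPM in Myh10-/- lungs, at a log2 fold change of -0.36 (adjusted p = 0.0466). Correcting for exon length and GC content moved this to -0.29 (adjusted p = 0.0626), and the call was lost without lung 1 of Myh10+/+ (0.133) or lung 1 of Myh10-/- (0.0627). The Wald test of DESeq2 did not call *Igfbp6* (adjusted p = 0.0898). The growth factor gene *Igf1* and the receptor gene *Igf1r* did not pass (log2 fold change 0.10 with adjusted p = 0.312, and 0.11 with adjusted p = 0.550).

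Of 50 further imprinted genes, 47 were tested, 2 were higher (against 0.298% of all tested genes) and 0 lower, with a median of 0.04. *Plagl1*, a paternally expressed zinc finger gene whose protein is known to act on a network of imprinted genes that includes *Igf2*, *H19* and *Dlk1*, was at 457.6 and 454 CPM in Myh10+/+ lungs and at 608 and 537 CPM in Myh10-/- lungs. Its log2 fold change was 0.33 (SE 0.07, adjusted p = 0.0362), and it was called in all 12 alternatives with 4 lungs, at adjusted p-values from 2.85e-07 to 0.0402. With a lung left out it was called without lung 2 of Myh10-/- (adjusted p = 1.21e-04) and not without lung 1 of Myh10-/- (0.0723) or lung 1 (0.0765) or lung 2 (0.277) of Myh10+/+. *Kcnq1ot1*, a paternally expressed noncoding RNA antisense to *Kcnq1*, was at 73.3 and 82.0 CPM in Myh10+/+ lungs and at 114 and 93.3 CPM in Myh10-/- lungs, with a log2 fold change of 0.41 (adjusted p = 0.0389). The same correction moved this to 0.28 (adjusted p = 0.0661), the call was lost without lung 1 of Myh10+/+ (0.122), and *Kcnq1* and 4 other genes overlap 1119 bp of it on the opposite strand. *Grb10* and *Cdkn1c*, maternally expressed growth inhibitors, did not pass (log2 fold change 0.05 with adjusted p = 0.845, and 0.04 with adjusted p = 0.786).

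Imprinted genes were then sorted by the parental copy reported as expressed, a split made after the values had been seen. Whether each gene is expressed from that copy alone in fetal lung was not checked. The 25 genes sorted as paternally expressed (4 members included) had a median log2 fold change of 0.13, and 20 of them were above 0. Of all 18763 tested genes, 9482 were above 0. Among the 23 genes sorted as maternally expressed (*H19* included) the median was -3.3e-04, with 11 above 0. Imprinted genes whose expressed copy varies or was not sure were left out. The 3 called genes *Peg3*, *Plagl1* and *Kcnq1ot1* were all sorted as paternally expressed, 3 of 25 against 0.298% of all tested genes called higher. Of the 23 genes sorted as maternally expressed 0 were called. *Peg3* stood just under the threshold (adjusted p = 0.0493), and *Kcnq1ot1* lost its call with the GC and length correction (adjusted p = 0.0661). Which copy the reads came from was not measured, and the difference between these lists was not tested.

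Of 26 listed genes of the LIN28 and let-7 axis, 22 symbols were in the table, 21 were tested and 0 were called. At an unadjusted p-value under 0.05, 7 were higher (*Trim71* and *Igdcc4* among them, named after their values had been seen) and 0 lower, against 7.52% and 9.02% of all tested genes, and the median log2 fold change was 0.07. For *Hmga1* the log2 fold change was -0.02 (adjusted p = 0.940) and for *Mycn* 0.03 (adjusted p = 0.907). Over all tested genes the median log2 fold change was -0.01 for 13717 genes with no let-7 match in the 3' UTR, -0.0010 for 1316 genes with 1, 0.0091 for 156 genes with 2 and 0.04 for 28 genes with 3 or more, *Hmga2*, *Lin28b* and *Igf2bp1* among them. Of these 28 genes, 0 were called higher and 1 lower. The medians were not corrected for 3' UTR length. A match was held by 18.3% of 3' UTRs of 2000 to 7000 bases and by 8.59% of all. A trend with the number of matches was not tested.

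**Figure D5:**
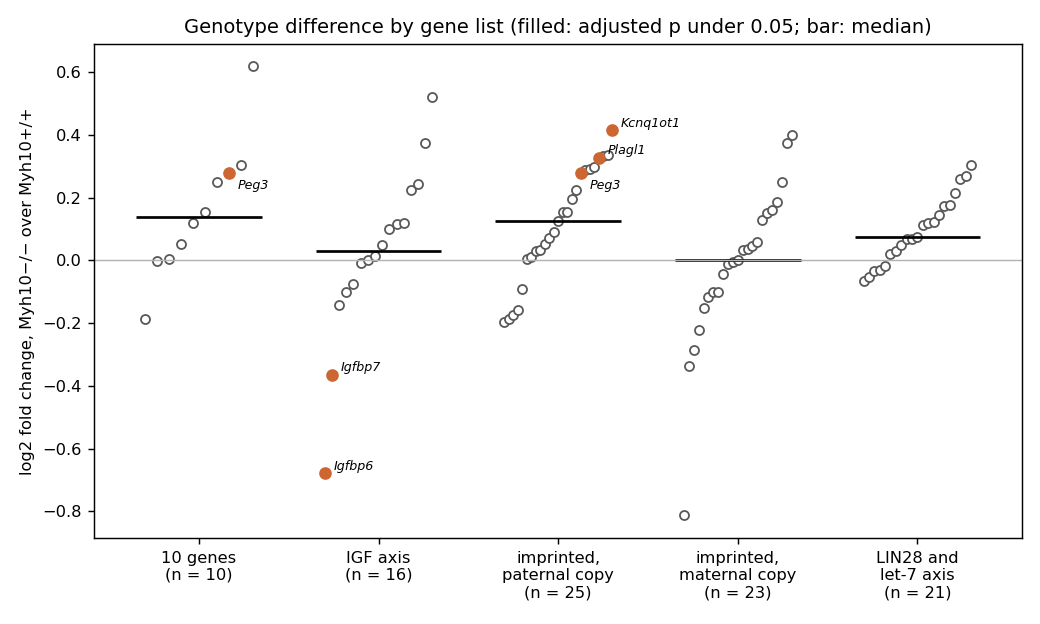
Log2 fold change of each tested gene of 5 lists, with members shown again where they are imprinted, filled points for an adjusted p under 0.05 and a bar at the median. *Peg3*, *Plagl1* and *Kcnq1ot1* are the filled points above 0, and *Igfbp6* and *Igfbp7* those below it.

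Marker genes of proliferation and of cell types were summed in each lung. The summed level of 6 cell cycle genes was 1412 to 1471 CPM in Myh10+/+ lungs and 1616 to 1735 CPM in Myh10-/- lungs, highest in lung 1 of Myh10-/-. That lung was also highest for *Peg3*, *H19*, *Igf2*, *Hmga2*, *Igf2bp1* and *Lin28b*. Lung 2 of Myh10-/- was highest for *Mest*, *Igf2bp2* and *Igf2bp3*, and lung 1 of Myh10+/+ for *Dlk1*. Of the 6 cell cycle genes, 5 were higher at an unadjusted p under 0.05 (7.52% of all tested genes were) and 0 were called. The 7 epithelial markers summed to 7717 to 7913 CPM in Myh10+/+ lungs and 5603 to 6504 CPM in Myh10-/- lungs, with 3 of 7 called lower (1.34% of all tested genes were). Most of this sum was *Sftpc*, at 5815 and 5630 CPM in Myh10+/+ lungs and 3876 and 4750 CPM in Myh10-/- lungs. *Sftpc* was not called (adjusted p = 0.173). Of the 7 fold changes 6 were below 0, with log2 values of -0.04 for *Epcam* and 0.02 for *Nkx2-1*. The 7 mesenchymal markers summed to 5167 to 5276 CPM and 4987 to 5155 CPM, with 0 of 7 called. The 5 endothelial markers (1369 to 1413 against 1244 to 1302 CPM) had 0 called. Called lower were 1 of 4 mesothelial, 1 of 5 leukocyte, 2 of 6 erythroid and 3 of 4 tested cardiac muscle markers, against 1.34% of all tested genes. Fetal liver, rich in *Igf2* and *H19*, was represented by *Alb*, *Afp* and *Apoa1* at 3.70 to 8.99 CPM in sum, with no order by genotype. The part of these cell types in the values of the 10 genes was not tested.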

How the data were processed

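The authors deposited raw counts of reads per Ensembl gene for 4 lungs. Per the labels and the study's methods, stranded mRNA libraries were read from 1 end, quality-trimmed (Reaper), mapped to GRCm38 by STAR 2.4.0a and counted on exons by featureCounts 1.5.1, leaving out reads on several genes or regions. The strand setting of the counting is not stated.

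Counts were scaled with TMM and tested with the quasi-likelihood test of edgeR 4.0.16 (R 4.3.3, robust = FALSE) over the 18763 genes that averaged 5 counts or more, with Benjamini-Hochberg adjustment. Replicates are separate mice. DESeq2 1.42.0 was an alternative, as were other scalings, filters, blocks and each lung left out. A loess correction (span 0.3) for GC content and exon length was added after the data had been seen and covered 99.5% of tested genes. The 12 alternatives given per gene include the fits with this correction. Positions and exon lengths come from GENCODE M21, matched by Ensembl ID for 45143 of 45706 genes. The members and lists were chosen with earlier results of these data known. Named genes are the members, called genes of the lists (at most 8 per list) and a set of pathway genes chosen by symbol.

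On simulated counts for these lungs (18536 genes, 100 changed by 1 and 100 by 0.3 on the log2 scale), 75 of the larger and 14 of the smaller changes were recovered, with 11 false calls among 100. The pairing was checked with the labels' replicate numbers, whose same-numbered lungs deviated with a correlation of -0.214 across genes and -0.019 without chromosomes X, Y and MT. With 2 lungs per genotype, p-values rest on the spread between few embryos. In edgeR's fit the spread of each gene is also drawn toward that of the other tested genes.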

Additional observations from a re-analysis of the deposited data

Results flagged for a closer look

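For *Igf2bp2* and *Igf2bp3*, neither of which was called, the sign of the genotype difference was not the same in the lungs with and without *Xist*. For *Igf2bp2* the log2 difference, Myh10-/- minus Myh10+/+, was -0.047 between the lungs without *Xist* and 0.042 between those with it, and for *Igf2bp3* it was -0.019 and 0.024. These differences are smaller than the fitted SEs of the log2 fold changes (0.061 and 0.074), each compares 1 lung with 1 lung, and the difference between the pairs was not tested.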

How the results depend on the processing

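With 252 genes lower and 56 higher, and 0 members lower and 1 higher, in the fit as reported, the counts moved under these settings. Genes higher numbered 112 with library totals, 474 with every gene of at least 1 count tested, 92 with DESeq2, 135 with robust = TRUE, 125 without chromosomes X, Y and MT and 113 with the GC and length correction. Genes lower numbered 688 with every gene of at least 1 count. Members higher numbered 0 with DESeq2 size factors and with filterByExpr, 3 with every gene of at least 1 count, and 2 with DESeq2 and without chromosomes X, Y and MT, and 1 member was lower with DESeq2 and with every gene of at least 1 count. With the replicate block 466 genes were lower and 244 higher, and 2 members higher. With the crossed block, which pairs the lungs by *Xist*, 415 genes were called, 95 of them higher. Together with the correction, 106 genes were higher with the replicate block, and 569 genes lower, 334 higher and 4 members higher with the crossed block. The labels do not say that the replicate number marks a pair. With each lung left out, where a lone lung is assumed to vary like the others, 175 to 875 genes were lower and 31 to 768 higher, with 0 to 0 members lower and 0 to 4 higher, and the upper counts came without lung 2 of Myh10-/-. The log2 ratio differences then lay between 0.05 and 0.15 for *H19* to *Igf2*, 0.19 and 0.25 for *Meg3* to *Dlk1* and -0.21 and -0.09 for *Igf2r* to *Igf2*. The sign turned for *Igf2bp2*, to 0.018 with library totals, 0.0021 with every gene of at least 1 count, 0.0029 without chromosomes X, Y and MT, and 0.024, 0.023 and 0.025 with the correction alone, plus the replicate block or plus the crossed one, and for *Igf2bp3*, to -0.013, -0.015 and -0.013 with these 3 corrections. Without a lung, *Igf2bp2* lay between -0.024 and 0.025 and *Igf2bp3* between -0.034 and 0.043. The cause of these changes was not tested. Over the 10 members and all alternatives, 129 values kept direction and side of the threshold (counting *Lin28b* with DESeq2, which has no adjusted p), 13 gained a call and 5 lost one. *Lin28b*, at 12 to 28 reads, is limited by depth.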
